A study of Rattus norvegicus with 6 samples.

Results

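Cholesterol is built from acetyl-CoA through mevalonate, farnesyl diphosphate, squalene and lanosterol, and the supply of a cell is further set by uptake from lipoproteins, storage as esters and efflux. The genes of these steps were followed in the metrial gland of pregnant rats, 3 arrays from animals exposed to hypoxia (10.5% oxygen) and 3 from animals in ambient air (21% oxygen), with the exposure running from gestation day 6.5 to day 13.5 and tissue taken at its end. The metrial gland lies in the uterine wall on the mesometrial side of the placenta and holds uterine natural killer cells, maternal vessels and decidual stroma, and in the rat it receives invading trophoblast. The labels used here name no strain, no age of the dams and no number of animals per array. A p-value therefore speaks of the scatter among these arrays, part of which may be technical. The 29 genes were chosen by their place in the pathway, with earlier results of these data known. They were 18 enzymes of synthesis, 4 regulators, 5 genes of uptake, internal transport and esterification, and 2 efflux pumps. Of the 29, 27 had a probe set annotated to that gene alone, among 14217 such genes on the array, and each gene was read from its brightest probe set. Hmgcs1, the synthase that makes HMG-CoA, and Npc1, a lysosomal cholesterol exporter, had no probe set named for them here and were not analysed.

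In all mammals the pathway is controlled by sterols in the endoplasmic reticulum. When sterols are scarce, SCAP carries the membrane-bound factor SREBP2 to the Golgi, where it is cut and released to raise transcription of most synthesis enzymes, and when sterols are plentiful the INSIG proteins hold SCAP back. Surplus cholesterol is oxidised to ligands of the LXR receptors, which raise transcription of the efflux pumps Abca1 and Abcg1. Several late steps, squalene epoxidation and lanosterol demethylation among them, consume molecular oxygen. In decidua and placenta cholesterol serves membranes and the synthesis of steroid hormones.

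Signals are on a log2 scale, 1 value per probe set and array, so a difference of 1 is 2-fold, and a change was called at a limma adjusted p under 0.05 over all 18625 probe sets tested. All 27 genes lay above every bacterial control probe set on all 6 arrays and all 27 passed the filter on low means. Arrays of a group correlated at 0.989 to 0.993 over the probe sets tested and arrays of different groups at 0.974 to 0.983. All 8 natural killer cell markers, the defining cells of this tissue, stood above the bacterial controls on every array. Markers of several cell types moved with oxygen. The log2 of the summed signal of the 8 trophoblast markers was 13.59 to 14.07 in hypoxia and 11.29 to 12.66 in ambient, with 6 of them higher (Plac1, Krt7, Cdkn1c and Krt8 by the smallest p), 0 lower and 2 not called. That of 6 red cell markers was 14.15 to 14.46 in hypoxia and 12.88 to 13.35 in ambient (Hbb, Alas2, Ahsp and Gypc higher, 0 lower), and that of 7 endothelial markers 12.82 to 12.97 and 12.60 to 12.67 (Vwf, Tie1, Tek and Ptprb higher, 0 lower). Kdr, the brightest of the 7, weighs most in the endothelial sum. It differed by 0.096 and was not called (limma adjusted p = 0.359). Decidual stroma markers, 5 in number, summed to 12.43 to 14.20 in hypoxia and 11.90 to 12.20 in ambient (Hand2 and Bmp2 higher, 0 lower). The brightest of the 5, Prl8a2, weighs most in that sum. It read 13.66, 11.996 and 14.07 in hypoxia and 11.78, 11.36 and 11.38 in ambient, and was not called (limma adjusted p = 0.0683). The 5 smooth muscle markers, 14.68 to 15.10 and 14.67 to 15.01, overlapped (0 called, 1 at an unadjusted p under 0.05). Natural killer cell markers summed to 15.21 to 15.36 in hypoxia and 15.50 to 15.70 in ambient (Nkg7, Cst7, Il2rb and Eomes lower, 0 higher, 4 not called). Gzmb and Prf1, the brightest of the 8, weigh most in that sum. They differed by -0.20 and -0.27 and were not called (limma adjusted p = 0.0825 and 0.107). Klrd1 leaned the other way, by 0.52 (limma adjusted p = 0.192), and Ncr1 differed by -0.012. Macrophage markers, 7 in number, summed to 11.75 to 11.86 in hypoxia and 11.93 to 12.004 in ambient (Cd163 lower, 0 higher). The 4 epithelial markers summed to 8.07 to 9.01 and 9.18 to 9.74 (Cdh1 and Epcam lower, 0 higher). All 4 adipocyte markers measured lay at bacterial control level on every array. Of 6 yolk sac or liver markers 0 were called and 1, Afp, was at control level on every array, and their sum was 8.90 to 9.04 in hypoxia and 9.05 to 9.46 in ambient. The part of these markers in the results below was not tested, and in whole tissue more cells of a type and more RNA per cell cannot be told apart.

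Hypoxia arrays carried more transcript of several enzymes along the synthetic route. Of 17 enzymes measured, 6 rose, 0 fell and 11 did not pass, at a background of 4.48% of 10546 genes called higher and 2.23% called lower when each is read from its brightest probe set (4.02% and 1.97% of all probe sets). The 6 were Acat2, Fdps, Sqle, Cyp51, Tm7sf2 and Dhcr7, and their rises were all below 1.5-fold. Over the 27 genes the count was 7 higher and 0 lower, Abcg1 being the remaining 1. The median difference of the 17 enzymes was 0.23 and that of all 27 genes 0.16, beside 0.0034 over all probe sets tested. The differences of the enzymes ran from -0.021 to 0.49, and 16 of 17 were above 0, as were 52.0% of genes on the array. In 12 of the 17 every hypoxia array lay above every ambient array, which held for 16.8% of genes.

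**Figure D1:**
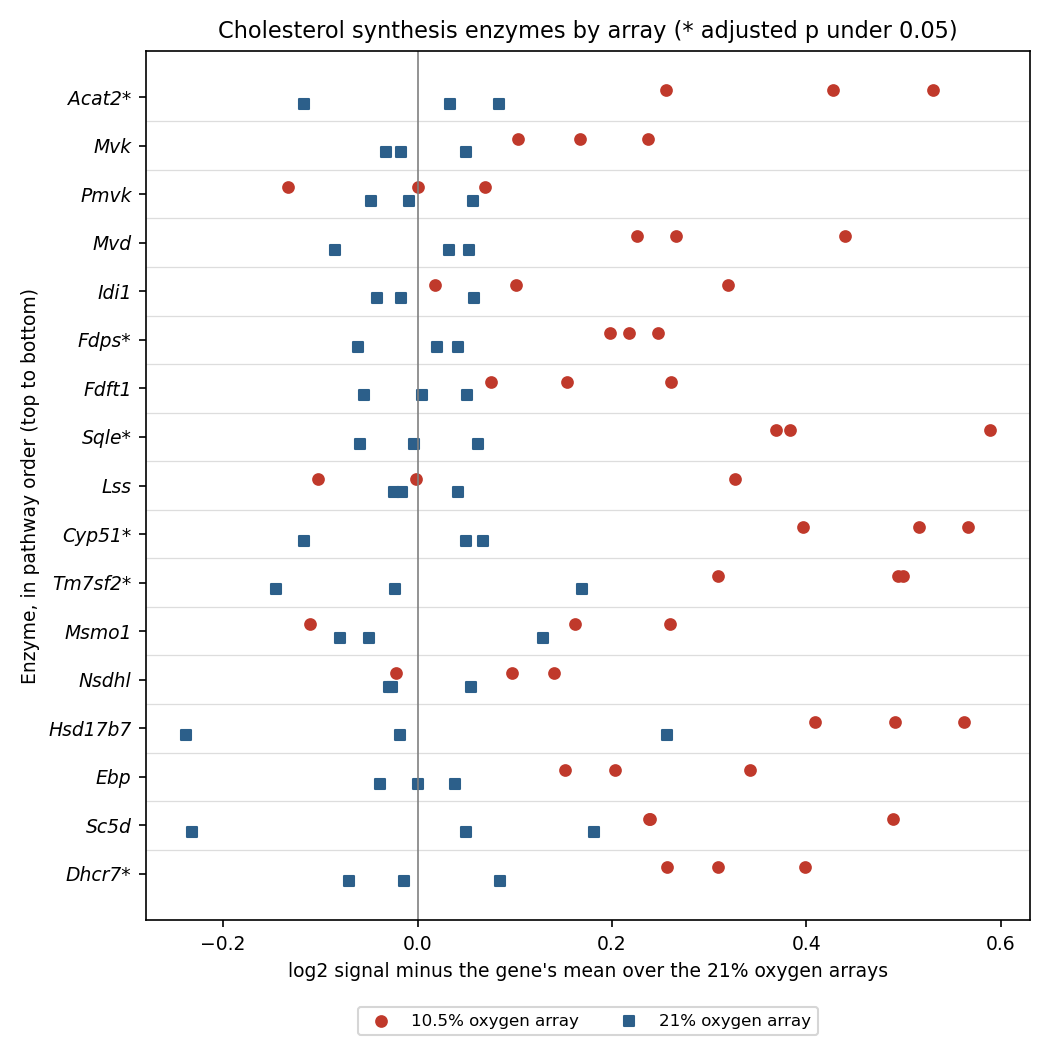
Each point is 1 array, drawn as its log2 signal minus the mean of that gene over the ambient arrays, with the 17 enzymes in pathway order from Acat2 at the top to Dhcr7 at the bottom. Hypoxia arrays (circles) lie to the right of ambient arrays (squares) without overlap in 12 of 17 genes, and asterisks mark the 6 called.

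At the entry, Acat2, the cytosolic thiolase that joins acetyl-CoA units to acetoacetyl-CoA (probe set 1372462_at), stood at 9.21, 9.38 and 9.48 in hypoxia, against 8.83, 8.98 and 9.04 in ambient. All 3 hypoxia arrays were above all ambient arrays, and the rise was 0.40 (SE 0.092), 1.32-fold, with an adjusted p of 0.0442. Mvk, mevalonate kinase, read 8.14, 8.21 and 8.07 in hypoxia and 7.94, 8.02 and 7.95 in ambient. These groups did not overlap either, but the difference of 0.17 (95% interval 0.00042 to 0.34) did not pass (adjusted p = 0.21). Pmvk, the next kinase, differed by -0.021 with an interval from -0.20 to 0.16, and its groups overlapped. Mvd, which decarboxylates mevalonate diphosphate to the isoprene unit, had 7.71, 7.88 and 7.67 in hypoxia and 7.35, 7.49 and 7.47 in ambient. Every hypoxia array was higher, and the difference of 0.31 missed the threshold (SE 0.088, adjusted p = 0.0804).

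Idi1, which isomerises that unit, overlapped between groups. It read 10.53, 10.45 and 10.75 in hypoxia and 10.49, 10.39 and 10.41 in ambient, a difference of 0.15 (adjusted p = 0.333), and its second probe set gave 0.25 (adjusted p = 0.219). Fdps, farnesyl diphosphate synthase (1367667_at), was tightly grouped at 11.64, 11.69 and 11.66 in hypoxia and at 11.46, 11.38 and 11.48 in ambient. It rose by 0.22 (SE 0.051, adjusted p = 0.0474), or 1.17-fold, the smallest rise among the 7 called genes. Fdft1, squalene synthase, the first enzyme committed to sterols, was at 9.33, 9.51 and 9.41 in hypoxia and 9.30, 9.26 and 9.20 in ambient. Its groups just cleared each other, and the difference was 0.16 (interval -0.0024 to 0.33, adjusted p = 0.217). Up to and including Fdft1, 2 of 7 measured enzymes rose, beside 4.48% of all genes, with a median difference of 0.17.

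From squalene to cholesterol 4 of 10 enzymes rose, 0 fell, and all 10 differences were above 0, with a median of 0.32. Of all genes 4.48% were called higher, 2.23% lower, and 52.0% had a difference above 0. Whether these later steps differ from the earlier ones was not tested. Sqle, squalene epoxidase, an oxygen-using and rate-controlling step (1387017_at), had values of 10.02, 10.01 and 10.23 in hypoxia, against 9.58, 9.70 and 9.64 in ambient. The lowest hypoxia array was above the highest ambient array, and the rise was 0.45 (SE 0.078), or 1.36-fold, with an adjusted p of 0.0214. Lss, which cyclises the epoxide to lanosterol, read 9.43, 9.85 and 9.53 in hypoxia and 9.51, 9.57 and 9.50 in ambient. Hypoxia replicate 2 alone stood high, and the difference of 0.074 (interval -0.18 to 0.32) became -0.052 without it.

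Cyp51, the cytochrome P450 that removes the 14-alpha methyl group of lanosterol, had the largest rise of the enzymes called. Its brightest probe set (1367979_s_at, whose suffix marks probes shared by several transcripts) read 11.38, 11.50 and 11.55 in hypoxia and 11.05, 11.04 and 10.87 in ambient. The rise was 0.49 (SE 0.072, adjusted p = 0.0126), or 1.41-fold, with the groups apart. The second probe set of Cyp51 (1387020_at), at 9.50, 9.65 and 9.53 in hypoxia and 8.96, 8.99 and 9.04 in ambient, also rose, by 0.56 (adjusted p = 0.00713). Tm7sf2, a sterol C14 reductase that acts on the product of Cyp51 (1389725_at), had 9.22, 9.41 and 9.41 in hypoxia and 9.08, 8.89 and 8.77 in ambient. It rose by 0.43 (SE 0.098, adjusted p = 0.0436), or 1.35-fold, with no overlap.

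The 3 enzymes that strip the C4 methyl groups gave unequal readings. Msmo1, the oxygen-using C4 methyl oxidase, overlapped at 10.60, 10.87 and 10.97 in hypoxia and 10.63, 10.66 and 10.84 in ambient, a difference of 0.10 (interval -0.13 to 0.34). Nsdhl, the decarboxylating dehydrogenase, differed by 0.072 at its brightest probe set (adjusted p = 0.588), with overlap. A dimmer probe set of Nsdhl (1392604_at) read 7.70, 7.98 and 7.83 in hypoxia and 7.33, 7.34 and 7.29 in ambient, and rose by 0.52 (SE 0.090, adjusted p = 0.0209), so the 2 probe sets of this gene disagree on the call. Hsd17b7, the 3-keto reductase, was at 8.44, 8.52 and 8.59 in hypoxia and 7.79, 8.01 and 8.29 in ambient. Its difference of 0.49 (SE 0.12) was close to that of Cyp51, but the ambient arrays were spread (SD 0.25) and the adjusted p was 0.0597. Its second probe set gave 0.14, with overlap.

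The last steps shift and set the double bonds of the ring. Ebp, the sterol isomerase, had 9.51, 9.64 and 9.45 in hypoxia and 9.34, 9.30 and 9.26 in ambient, a difference of 0.23 without overlap that did not pass (adjusted p = 0.0974). Sc5d, the oxygen-using C5 desaturase, was higher by 0.32 (SE 0.12, adjusted p = 0.153), with 0.10 and 0.19 at its other probe sets. Dhcr7, which reduces 7-dehydrocholesterol to cholesterol (1368189_at), read 8.56, 8.61 and 8.70 in hypoxia and 8.29, 8.23 and 8.39 in ambient. The groups were apart and the rise of 0.32 (SE 0.076), 1.25-fold, passed narrowly, with an adjusted p of 0.0498.

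**Figure D2:**
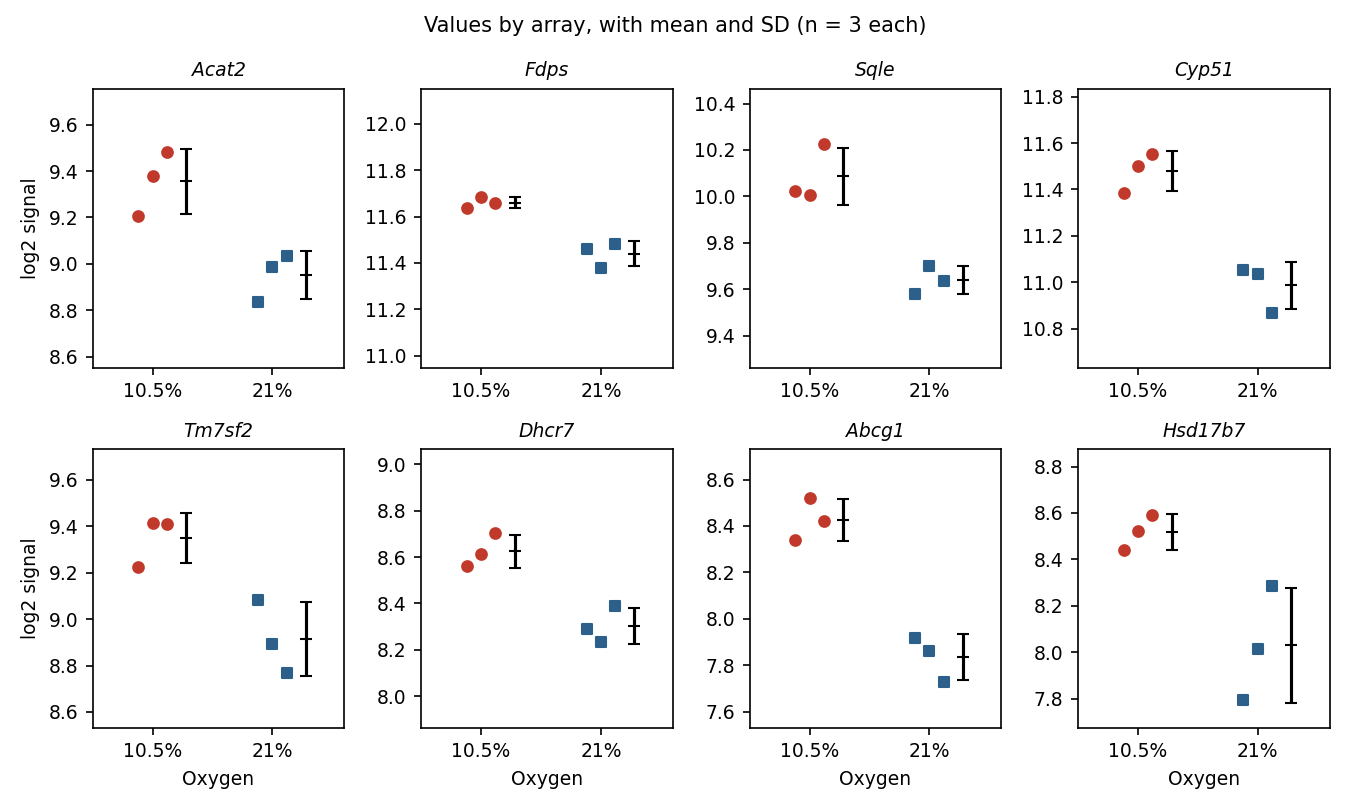
Log2 signal of the 7 called genes and of Hsd17b7 in each array, 10.5% oxygen on the left and 21% oxygen on the right of each panel, with the mean and SD (n = 3 each) beside the points; every panel spans the same height. The groups do not overlap in any of the 8 panels, and the ambient arrays of Hsd17b7 are the most spread (SD 0.25).

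Of the 7 calls, 3 (Acat2, Fdps and Dhcr7) were lost whichever array was left out. With any 1 array left out, 2 or 3 of the 27 genes were called, and Cyp51 and Abcg1 were called each time. Cyp51 was called under all 16 alternatives (adjusted p 0.00633 to 0.0424). Sqle lost its call when any 1 of the ambient arrays, or the first hypoxia array, was dropped (up to 0.0788). Acat2 lost it without any 1 array, with no filter, with no variance trend and with array weights (up to 0.113), and Fdps in 11 of the 16 alternatives, among them each array left out, no filter and quantile normalization (up to 0.136). Tm7sf2 lost it in 8 of the 16, among them any 1 array left out but ambient replicate 1 (up to 0.137). Dhcr7 lost its call in 12 of the 16 alternatives (up to 0.141), among them each array left out. Hsd17b7 passed without ambient replicate 3, where its difference was 0.62.

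**Figure D3:**
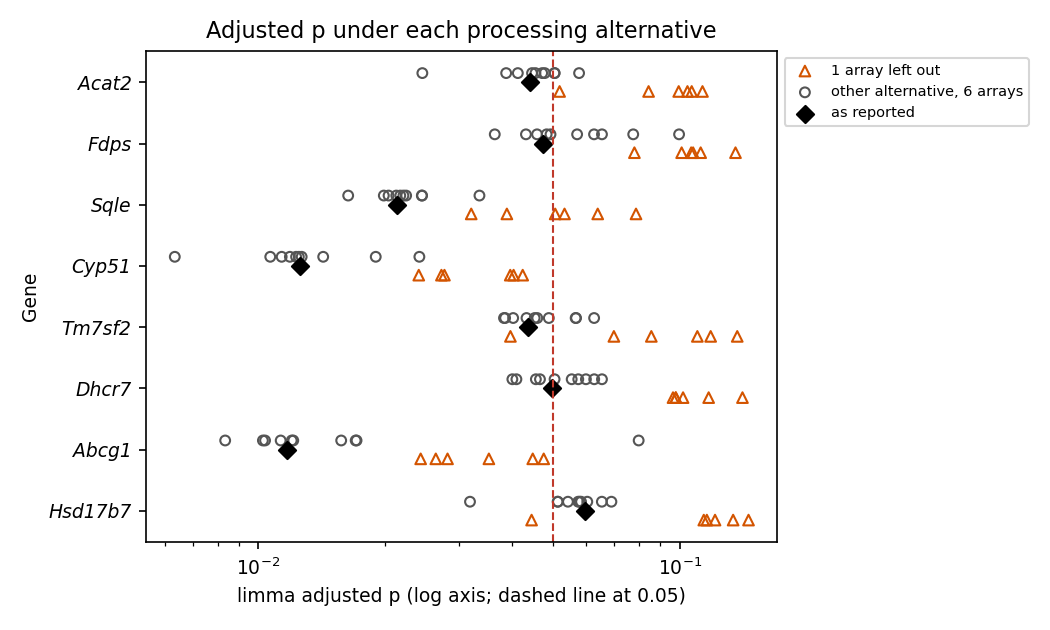
Limma adjusted p (log axis) of the 7 called genes and Hsd17b7 as reported (diamonds), with 1 array left out (triangles) and under the other alternatives with 6 arrays (circles), the dashed line marking 0.05. All Cyp51 symbols lie left of the line, from 0.00633 to 0.0424, whereas the triangles of Fdps and Dhcr7 all lie to its right.

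The 17 enzymes were also averaged per array, each relative to its ambient mean. The average was 0.18, 0.31 and 0.28 in hypoxia replicates 1, 2 and 3, against -0.0084, -0.016 and 0.025 in ambient replicates 1, 2 and 3. All 3 hypoxia arrays were above the ambient arrays, with replicate 1 the lowest of them. The log2 of the summed trophoblast markers on the same arrays was 13.59, 13.82 and 14.07 in hypoxia and 12.66, 12.48 and 11.29 in ambient. Hypoxia replicate 1 was the lowest of its group in both measures, and ambient replicate 3 was lowest of its group in the trophoblast sum and highest in the enzyme average. The 6 called enzymes alone averaged 0.30, 0.39 and 0.47 in hypoxia replicates 1, 2 and 3, and 0.011, -0.0017 and -0.0092 in ambient. Within each group this order of the arrays was that of the trophoblast sum. The 11 enzymes not called averaged 0.11, 0.27 and 0.18 in hypoxia and -0.019, -0.025 and 0.043 in ambient, and their order differed from it. The part of trophoblast in these enzyme averages was not tested. As a measure of RNA degradation, the beta-actin control probes at the 3' end exceeded those at the 5' end by 0.58, 0.77 and 0.66 in hypoxia and 0.53, 0.54 and 0.41 in ambient (two-sided exact permutation test, p = 0.1, which is the lowest value possible with 3 arrays a group). For GAPDH the same gap was -0.040, 0.057 and -0.0054 in hypoxia and -0.046, -0.0077 and -0.047 in ambient. These groups overlapped (two-sided exact permutation test, p = 0.2). Both gaps were highest in hypoxia replicate 2, as was the average of the 17 enzymes, and their part in the result was not tested.

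Promoter sequence was read because the synthesis enzymes are textbook SREBP2 targets, whose promoters pair a sterol regulatory element with sites for NF-Y and Sp1. Windows of 300 bases, 250 before and 50 after the start, were available from RefSeq (build GRCr8) for 23 of the 29 genes. They are shown for the 5 called genes with a window, and for Msmo1, which did not pass and holds the sterol element core. Capitals mark matches on either strand to TCACNCCA (the element's core), CCAAT (NF-Y), GGGCGG (Sp1) or ACGTG (the core of the hypoxia response element). The windows are chr1:50100590-50100889 (plus strand) for Acat2, chr2:176804767-176805066 (minus strand) for Fdps, chr4:30991443-30991742 (plus strand) for Cyp51, chr1:212789492-212789791 (minus strand) for Tm7sf2, chr1:208444184-208444483 (plus strand) for Dhcr7 and chr16:29746863-29747162 (plus strand) for Msmo1.
Acat2: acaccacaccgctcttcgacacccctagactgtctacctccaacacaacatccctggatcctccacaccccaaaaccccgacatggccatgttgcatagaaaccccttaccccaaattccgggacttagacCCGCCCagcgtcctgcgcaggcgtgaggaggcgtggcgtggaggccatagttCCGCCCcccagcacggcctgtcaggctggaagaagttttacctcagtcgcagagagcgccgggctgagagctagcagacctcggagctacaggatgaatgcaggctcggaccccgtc
Fdps: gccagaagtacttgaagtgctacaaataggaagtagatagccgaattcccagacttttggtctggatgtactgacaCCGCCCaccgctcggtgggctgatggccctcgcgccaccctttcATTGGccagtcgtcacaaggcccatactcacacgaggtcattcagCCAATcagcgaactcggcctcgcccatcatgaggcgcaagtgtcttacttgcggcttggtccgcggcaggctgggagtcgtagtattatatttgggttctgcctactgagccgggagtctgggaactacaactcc
Cyp51: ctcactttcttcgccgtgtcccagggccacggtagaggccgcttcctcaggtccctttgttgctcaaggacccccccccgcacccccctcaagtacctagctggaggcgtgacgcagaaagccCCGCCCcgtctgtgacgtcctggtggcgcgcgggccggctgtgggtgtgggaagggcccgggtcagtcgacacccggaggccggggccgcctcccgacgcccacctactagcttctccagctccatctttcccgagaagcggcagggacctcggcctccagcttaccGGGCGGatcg
Tm7sf2: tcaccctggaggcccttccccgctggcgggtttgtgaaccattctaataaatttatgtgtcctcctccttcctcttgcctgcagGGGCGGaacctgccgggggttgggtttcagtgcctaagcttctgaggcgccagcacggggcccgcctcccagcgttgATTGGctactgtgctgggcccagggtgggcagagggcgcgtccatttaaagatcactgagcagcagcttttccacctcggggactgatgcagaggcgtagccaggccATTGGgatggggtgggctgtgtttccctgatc
Dhcr7: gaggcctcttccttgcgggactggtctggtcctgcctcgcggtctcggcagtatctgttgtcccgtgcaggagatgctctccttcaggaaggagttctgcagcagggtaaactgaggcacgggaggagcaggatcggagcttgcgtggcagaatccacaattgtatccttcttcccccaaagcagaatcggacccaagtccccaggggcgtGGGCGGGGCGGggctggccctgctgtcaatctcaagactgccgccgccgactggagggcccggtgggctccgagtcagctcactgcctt
Msmo1: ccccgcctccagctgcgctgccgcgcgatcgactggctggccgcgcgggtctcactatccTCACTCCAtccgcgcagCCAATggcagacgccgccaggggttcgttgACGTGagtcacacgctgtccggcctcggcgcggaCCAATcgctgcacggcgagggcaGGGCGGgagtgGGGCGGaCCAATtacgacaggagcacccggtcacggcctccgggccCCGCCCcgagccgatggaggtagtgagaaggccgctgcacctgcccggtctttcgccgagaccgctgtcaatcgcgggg

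CCAAT was in 17 of the 23 windows (73.9%), against 37.5% of all 33469 windows and 36.7% of the 9772 windows of genes tested here. Among the called genes Fdps and Tm7sf2 held it and Acat2, Cyp51 and Dhcr7 did not. GGGCGG was in 20 of 23 (87%), against 33.1% of all windows and 61.5% of those of genes tested, and all 5 called genes held it. In Dhcr7 a pair of GGGCGG matches, 39 and 34 bases before the start, overlap by a base. TCACNCCA was in 2 windows, those of Msmo1, 190 bases before the start, and Srebf2, 156 bases before it, or 8.7% against 3.89% of all windows. The full sterol regulatory element was in 0 of 23, against 0.269% of all windows, and the LXR direct repeat in 0 of 23, against 0.00598%. ACGTG was in 7 of 23 (30.4%), against 19.3% of all windows and 25.3% of those tested, and in 0 of the 5 called genes with a window. A match is a run of letters and no more, and these shares were not tested.

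The genes that control the pathway were not called in either direction. Limma called 0 of 4 regulators (1 had an unadjusted p under 0.05), and their median difference was -0.098. Of all genes 4.48% were called higher and 2.23% lower, and a count of 0 in 4 lies near those shares. Srebf2, which encodes SREBP2, read 9.88, 9.95 and 9.52 in hypoxia and 9.94, 9.89 and 9.94 in ambient. Hypoxia replicate 3 alone was low, and the difference was -0.14 (interval -0.39 to 0.11). Scap, the escort of SREBP2, stood at 9.16, 9.21 and 9.12 in hypoxia and 9.23, 9.10 and 9.33 in ambient, a difference of -0.054 (interval -0.23 to 0.12). A dimmer probe set of Scap was lower in every hypoxia array, with a difference of -0.42 (adjusted p = 0.0796).

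The INSIG genes leaned in opposite directions without passing. Insig1, itself an SREBP target, had 12.55, 12.84 and 12.80 in hypoxia and 12.58, 12.47 and 12.54 in ambient. Hypoxia replicate 1 lay among the ambient arrays while the other two were above them, and the difference was 0.20 (interval 0.016 to 0.38, adjusted p = 0.179). Insig2 had 9.23, 8.998 and 9.17 in hypoxia and 9.26, 9.32 and 9.27 in ambient. Each hypoxia array was below each ambient array, by little, and the difference of -0.15 (interval -0.33 to 0.030) did not pass (adjusted p = 0.291). Whether the 2 genes differ from each other in response was not tested.

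**Figure D4:**
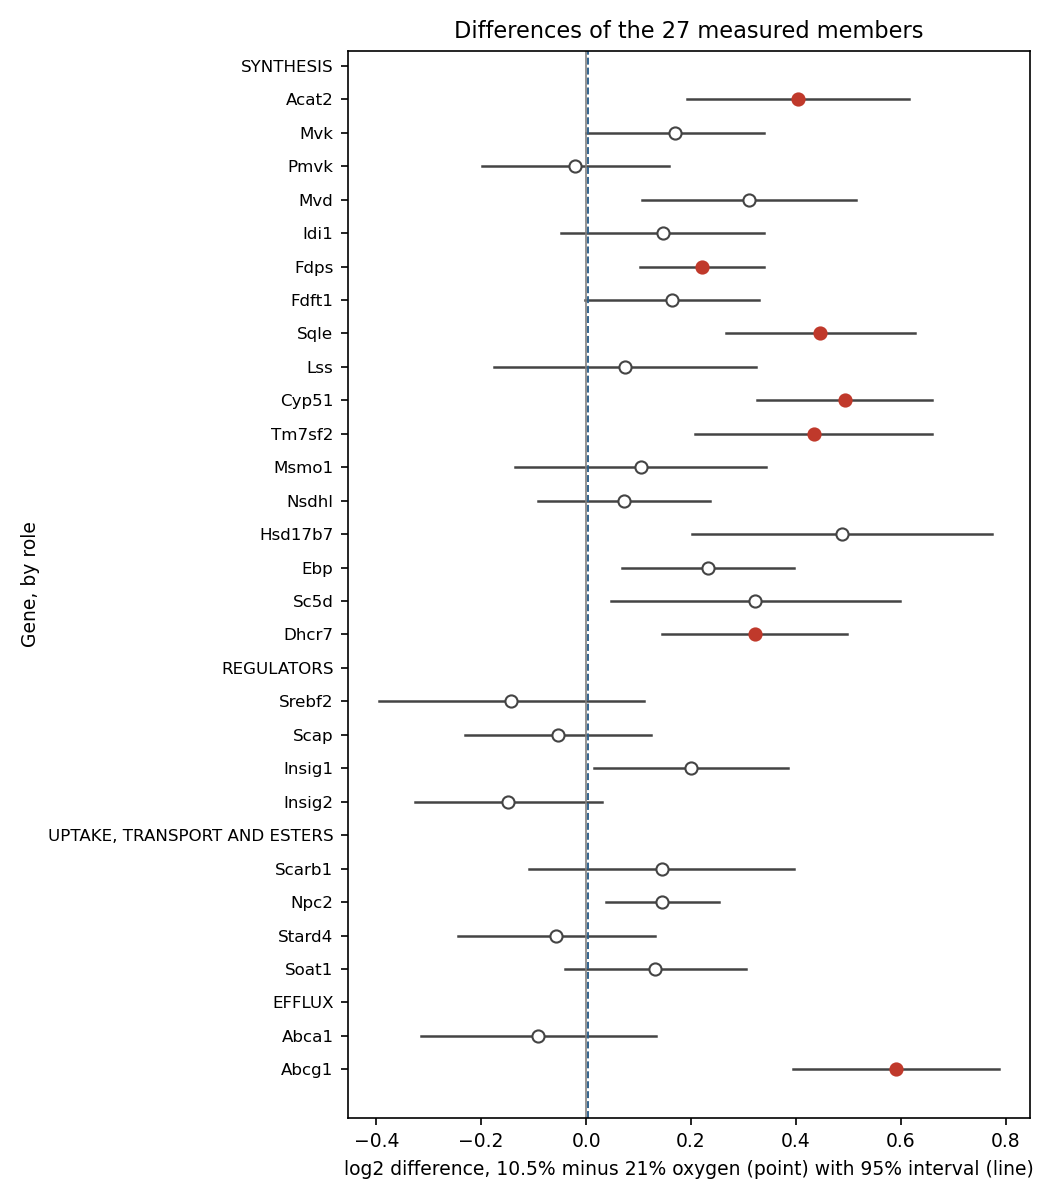
Log2 difference, 10.5% minus 21% oxygen, of the 27 measured genes (points) with 95% intervals (lines), grouped by role; filled points are called at an adjusted p under 0.05 and the dashed line is the median of all probe sets, 0.0034. The 6 called enzymes lie between 0.22 and 0.49 and Abcg1 at 0.59, while the intervals of Srebf2, Scap and Insig2 span 0.

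Uptake, internal transport and esterification showed no call. Limma called 0 of the 4 genes measured (1 had an unadjusted p under 0.05), and their median difference was 0.14. This count too lies near the shares of all genes called, 4.48% higher and 2.23% lower. Scarb1, the receptor that takes up cholesteryl ester from high-density lipoprotein, read 9.23, 8.97 and 8.95 in hypoxia and 8.98, 8.72 and 9.02 in ambient. The groups overlapped, with a difference of 0.14 (interval -0.11 to 0.40). Npc2, which lifts cholesterol from lysosomal lumen to membrane, had 13.23, 13.26 and 13.16 in hypoxia and 13.11, 13.05 and 13.05 in ambient. Its groups were apart and its difference of 0.15 (SE 0.047) did not pass (adjusted p = 0.109).

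Stard4, a cytosolic sterol carrier, differed by -0.057 (interval -0.25 to 0.13) with overlapping groups. Its 2 dimmer probe sets were at -0.36 (adjusted p = 0.0645) and -0.12. Soat1, which esterifies cholesterol for storage, read 10.06, 9.996 and 9.91 in hypoxia and 9.78, 9.81 and 9.97 in ambient, a difference of 0.13 (interval -0.041 to 0.31). A dimmer Soat1 probe set gave -0.038, so the direction is not settled.

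The efflux pumps gave 1 call in 2. Abcg1, which passes cholesterol to high-density lipoprotein (1368103_at), had the largest difference of the 27 genes. It read 8.34, 8.52 and 8.42 in hypoxia, against 7.92, 7.86 and 7.73 in ambient. All hypoxia arrays were above all ambient arrays, and the rise was 0.59 (SE 0.085), or 1.51-fold, with an adjusted p of 0.0117. Beside 202 genes (1.92%) called at 1.5-fold or more higher, it was the only 1 of the 27 in that range. Its 2 other probe sets, left out for low means, differed by 0.13 and 0.17, and when all 3 were averaged the difference was 0.30 and the call was lost (adjusted p = 0.0799).

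Abca1, which loads cholesterol onto lipid-poor apolipoprotein, read 10.35, 10.32 and 10.20 in hypoxia and 10.35, 10.58 and 10.21 in ambient. The groups overlapped, and the difference was -0.091 (interval -0.31 to 0.13). Its 4 probe sets split by sign. The second brightest (1383355_at) had 9.34, 9.19 and 9.42 in hypoxia and 9.15, 9.07 and 9.05 in ambient, a difference of 0.23 (adjusted p = 0.129). The dimmest (1384381_at) was higher by 0.41 (adjusted p = 0.106), also without overlap, and the remaining 1 differed by -0.13. The mean of all 4 was higher by 0.10 (adjusted p = 0.447).

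**Figure D5:**
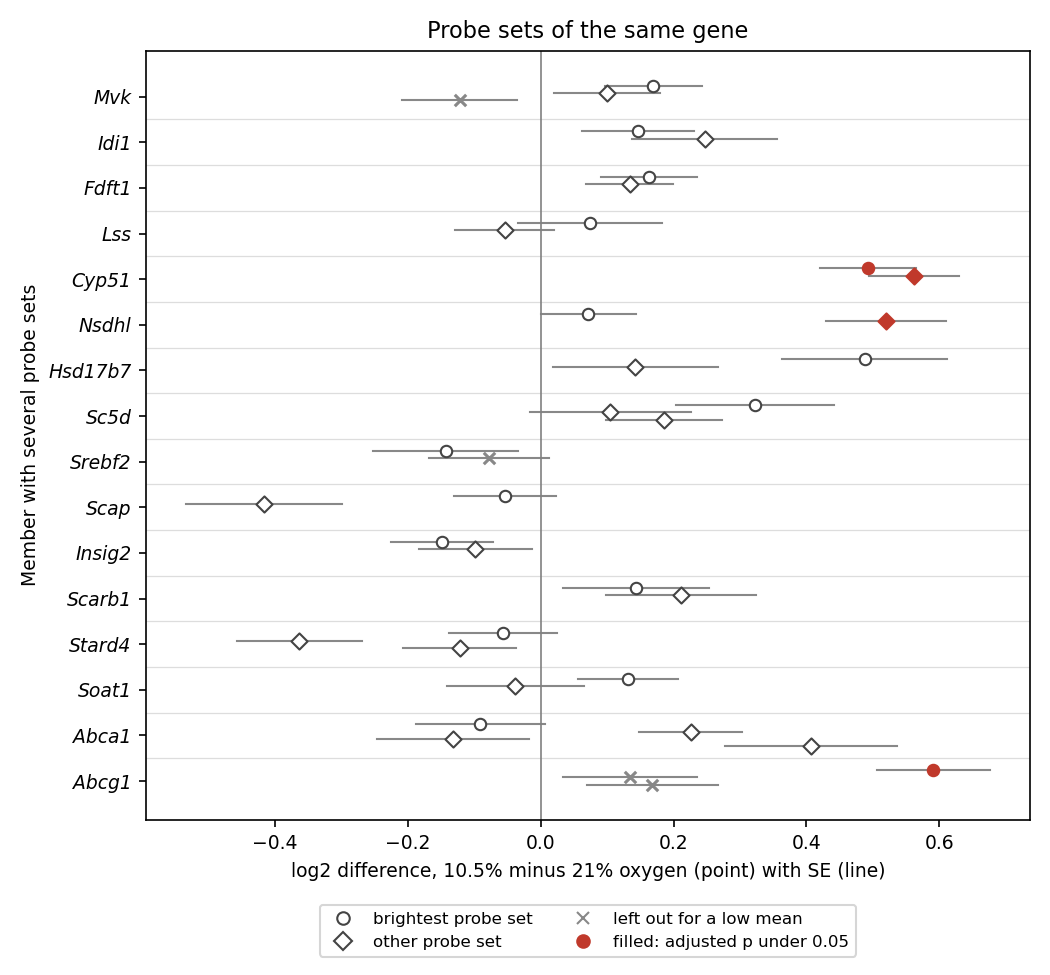
Log2 difference, 10.5% minus 21% oxygen, with SE, of every probe set of the 16 genes that have more than 1; circles are the brightest, diamonds the others, crosses those left out for a low mean, and filled symbols are called. Both Cyp51 probe sets lie at 0.49 and 0.56, Nsdhl is split between 0.072 and 0.52, and Abca1 runs from -0.13 to 0.41.

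Over all 45 tested probe sets of these genes 9 were called higher and 0 lower, beside 4.02% and 1.97% of all probe sets tested. Of 14 genes with more than 1 tested probe set, 3 (Lss, Soat1 and Abca1) had probe sets of both signs and 1 (Nsdhl) had probe sets that differed on the call.

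The neighbouring genes of lipid handling were read in the same fit, except 10 of low mean that were tested with no filter. Of 59 measured of 65 listed, 5 were higher, 1 lower and 53 were not called, with a median difference of 0.024. Cyp11a1, 1 of the 5, was called in the fit with no filter. Over all genes in the main fit, 4.48% were called higher and 2.23% lower. Of 10 genes of SREBP activation and fatty acid synthesis, 1 rose and 0 fell. That was Acsl3, a fatty acid activating enzyme of the endoplasmic reticulum and lipid droplets, at 9.11, 9.03 and 8.96 in hypoxia and 8.41, 8.58 and 8.52 in ambient. Its groups were apart and it rose by 0.53 (SE 0.076, adjusted p = 0.0117), or 1.44-fold. Of these 10 genes 8 had a difference above 0 and 2 below, with a median of 0.12. In 6 of the 10 every hypoxia array lay above every ambient array, beside 16.8% of all genes. An unadjusted p under 0.05 was found for 4, which were Acsl3, Acly (0.29), Fasn (0.25) and Scd (0.22). An upward lean was thus not confined to the cholesterol enzymes, and whether the lists differ was not tested. Of 8 genes of the branches that use isoprenoids for other ends 0 were called, and 0 had an unadjusted p under 0.05. Pdss2 at 0.092 and Pggt1b at -0.093 had the smallest p.

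Lipoprotein genes had 3 rises and 0 falls among 15 measured, beside 4.48% of all genes called higher and 2.23% lower. Of the 15, 4 had low means and were tested with no filter. Apoa1, Apoc2 and Lipc, among these, were above the highest bacterial control on no array. Lipa, the lysosomal acid lipase that frees cholesterol from esters taken up in lipoproteins, read 12.21, 12.41 and 12.46 in hypoxia and 11.98, 11.94 and 11.88 in ambient. It rose by 0.43 (SE 0.072, adjusted p = 0.0192) with no overlap. Lpl, which releases fatty acids from lipoprotein triglyceride, rose by 0.67 (SE 0.13, adjusted p = 0.0299), or 1.59-fold, and Cd36, a scavenger receptor also used for fatty acids, by 0.81 (SE 0.15, adjusted p = 0.0256), or 1.76-fold. These 3 calls were lost with some single arrays left out, Lipa without hypoxia 2, ambient 2 or ambient 3 (up to 0.0782), Lpl without any of those arrays or hypoxia 1 (up to 0.107), and Cd36 without hypoxia 1, hypoxia 2, ambient 1 or ambient 2 (up to 0.0819). Endothelial markers, given above, moved the same way as Lpl and Cd36, and their part was not tested.

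Genes of oxysterols and LXR were 11 in number, 4 of them (Abcg5, Abcg8, Cyp7b1 and Ch25h) of low mean and tested with no filter. Abcg8 and Cyp7b1 were above the highest bacterial control on no array. Limma called 0 of the 11, beside 4.48% of all genes called higher and 2.23% lower, and 2 had an unadjusted p under 0.05. These 2 were Lpcat3, at -0.36 (adjusted p = 0.07), and Cyp27a1, which makes an oxysterol, at -0.18 (adjusted p = 0.149). Both had hypoxia arrays below all ambient arrays. The LXR genes Nr1h2 and Nr1h3 each differed by 0.11 and were not called. Genes of internal sterol transport and esters, 12 measured, had 0 calls and 4 at an unadjusted p under 0.05, with Osbpl1a at -0.53 (adjusted p = 0.0646) and Gramd1b at -0.48 (adjusted p = 0.105) nearest to it.

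At the point where cholesterol becomes steroid, 3 genes were measured. Cyp11a1, the mitochondrial side-chain cleavage enzyme, was left out for its low mean and tested with no filter. It read 5.82, 5.59 and 6.28 in hypoxia, above every bacterial control, and 5.06, 4.86 and 4.80 in ambient, above them on 1 of 3 arrays. It was higher by 0.99 (SE 0.17, adjusted p = 0.0177 in the fit with no filter, where 2.34% of 31042 probe sets were called higher and 1.12% lower), and part of that difference is against background. Fdx1, the ferredoxin that passes electrons to Cyp11a1, fell by 0.37 (SE 0.077, adjusted p = 0.0352), with 10.23, 10.21 and 10.46 in hypoxia and 10.66, 10.66 and 10.71 in ambient. The call of Fdx1 was lost without any 1 array but hypoxia replicate 3, and with no variance trend (up to 0.118). Star, which brings cholesterol into mitochondria, had a low mean and differed by 0.080 with overlap.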

How the data were processed

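Per the labels' protocols, biotin-labelled cRNA of each sample was read on 1 single-channel Affymetrix rat array. The deposited values are log2 expression summaries, as read from their range, and MAS5 and Affymetrix Expression Console are named, with no role or version, in the submitters' processing notes. How background, summarization and scaling were handled is not given in the sources used here. A method that equalises arrays hides a change shared by most genes. Array medians lay between 6.44 and 6.47.

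The array holds 57 control and 31042 other probe sets. Of the others, the 40% of lowest mean signal (12417, below 5.74) were dropped, and 18625 were tested in R 4.3.3 with limma 3.58.1 (lmFit, eBayes with a variance trend, group as the only term, two-sided, Benjamini-Hochberg). Of the 31042, 20826 carried 1 gene symbol, 436 several and 9780 none, and 20758 were found in the RefSeq table of GRCr8 by gene identifier. Where the brightest probe set of a marker or neighbouring gene was dropped, it was tested in a fit with no filter. Background was read from 27 bacterial control probe sets, at most 5.00. Precision is limited by the number of arrays. The genes, the lists beside them and the tests were chosen with earlier results of these data known. Every gene of the pathway list is named, as are those of the neighbouring lists past the threshold, or the 2 of smallest p where none passed. The fit was tested on simulated data with known differences and 18625 probe sets. It called 20 of 50 probe sets raised by 0.5 and 45 of 50 raised by 1, with 9 false calls. A rise of 0.5 was thus missed more often than called in the simulation. For a pathway gene not called, its own interval, not widened for the number of genes, shows what difference remains possible. At the brightest probe set the intervals of Mvd (0.11 to 0.51), Hsd17b7 (0.20 to 0.77) and Sc5d (0.047 to 0.60) took in 0.5. Those of the other pathway genes not called did not, Pmvk (-0.20 to 0.16) among them. Alternatives changed the filter, normalization, offset, variance model, array weights, probe set rule, block or arrays used.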

Additional observations from a re-analysis of the deposited data

How the results depend on the processing

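The 7 calls among the 27 genes were recomputed under 16 alternatives, 6 of which leave out 1 array each. Calls numbered 2 to 3 with 1 array left out, 4 with no filter, 4 with quantile normalization and 3 with no variance trend, and 0 genes were called lower under any of the 16. Over all probe sets, the count higher ranged from 226 to 666 and the count lower from 44 to 340 with 1 array left out, and 241 were lower with no variance trend. Deviations of same-numbered arrays from their group means correlated at 0.012, 0.071 and 0.070, and not every array correlated best with its own number, so the numbers were not taken as pairs. With the replicate block, 5 of the 27 genes were called, 4 of them among the 7 and the other Hsd17b7 (adjusted p = 0.0318), while Fdps, Tm7sf2 and Dhcr7 were not called, and 797 probe sets were higher and 520 lower. Of the 432 comparisons of a gene with an alternative, 378 kept direction and side of the threshold, 45 lost a call, 2 gained it and 7 changed sign, each of the 7 in a gene that was not called. With 1 array left out, Pmvk ranged from -0.066 to 0.035, Lss from -0.052 to 0.16, Scap from -0.11 to 0.0012, Stard4 from -0.11 to 0.010 and Abca1 from -0.18 to 0.0080, and with the mean of all its probe sets Abca1 was at 0.10. The median difference of the 27 genes lay between 0.14 and 0.21 throughout. The cause of the lost calls was not tested, though each array left out also leaves fewer samples. Quantile normalization moved the split of all calls to 648 higher and 521 lower, against 749 and 367. An alternative for linear values was not run, since the values are on a log2 scale.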
